A study of Tetranychus urticae with 8 samples.

Results

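The genes described here are 3 cytochrome P450 oxidases of the CYP392 family and the cytochrome P450 reductase of Tetranychus urticae, the two-spotted spider mite. They were chosen by gene ID as enzymes of oxidative metabolism, by a rule that names no measured value. Earlier results of these data were known when they were chosen. They are 4 of the 17654 gene IDs in the count table: CYP392A16 (tetur06g04520), CYP392A11 (tetur03g00970), CYP392E10 (tetur27g01030) and the reductase (tetur18g03390). The names are those under which the IDs were selected. The table itself holds IDs alone, so the names could not be checked against the data, and no coordinates or sequences are given. The 4 IDs are all members, and each of them passed the filter on low counts.

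Cytochrome P450 oxidases are haem enzymes that insert an oxygen atom into fat-soluble substrates, among them hormones, plant compounds and pesticides. In the endoplasmic reticulum they receive the electrons for this step from NADPH through cytochrome P450 reductase, a flavoprotein that serves many different P450 enzymes. The CYP392 family is expanded in the spider mite and is known mainly from work on acaricides. The recombinant mite enzyme CYP392A16 metabolises abamectin, CYP392A11 metabolises cyenopyrafen and fenpyroximate, and CYP392E10 metabolises spirodiclofen.

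RNA was sequenced from whole bodies of adult mites of strain London kept on detached bean leaves, with 4 libraries of females and 4 of males. Per the labels' protocols, a female library came from about 200 animals aged 3 days and a male library from about 800 animals aged 1 to 2 days. The labels name no treatment, so the values describe mites of 1 strain with no stated exposure to any acaricide. Sex, age and pool size go together throughout and cannot be told apart. Reads on genes per library numbered 12912850 to 17443223 in females, against 12082575 to 21414612 in males.

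All 4 genes had a higher level in males relative to the reads of the library, and the 3 oxidases differed more than the reductase. The amount of RNA per animal was not measured. The oxidases were 3.88-fold (CYP392A16), 5.05-fold (CYP392A11) and 4.41-fold (CYP392E10) higher in males, whereas the reductase was 1.47-fold higher in males. A difference between the sexes is the rule in this dataset, which is the background for these 4 genes. At an adjusted p below 0.05 and at least 2-fold (edgeR quasi-likelihood test, Benjamini-Hochberg over 12885 tested genes), 30.5% of tested genes were higher in males and a further 26.9% had their higher level in females. At an adjusted p below 0.05 and any size, 46.2% of tested genes were higher in males, as were 4 of the 4 genes here. The 3 oxidases also met the 2-fold minimum. In 44.2% of tested genes every male library lay above every female library, which was also so for each of these 4. Reads that match other, similar CYP392 genes could be lost or shared in counting, and their part in these values was not tested. In whole bodies, fewer cells of a type and less RNA per cell cannot be told apart.

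**Figure D1:**
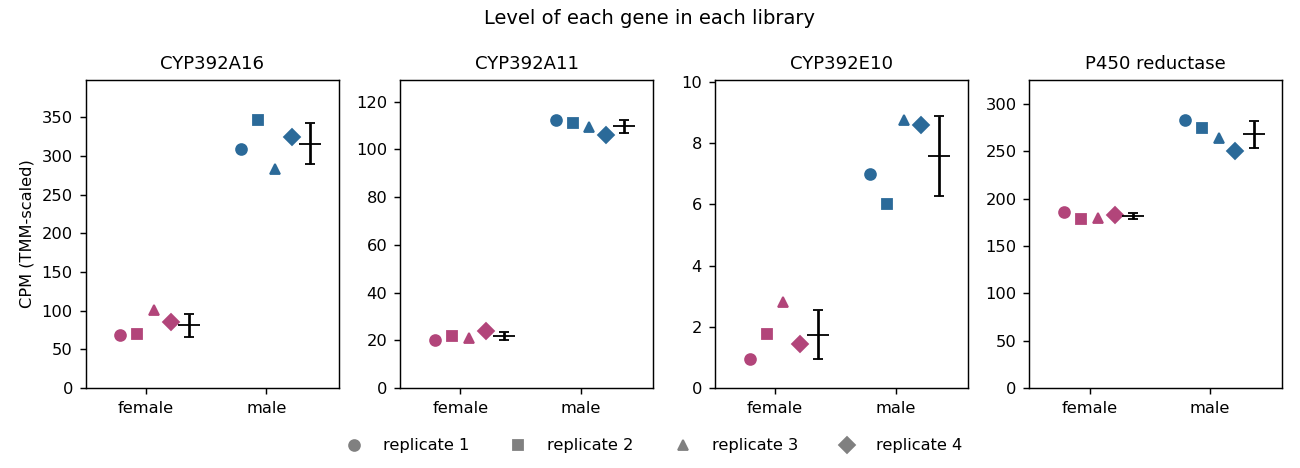
Each panel plots 1 gene, with its level in CPM (reads scaled to library size, with TMM factors) on an axis that starts at 0. Points are the 4 female libraries (left) and the 4 male libraries (right), with the mean and SD beside them in black. In every panel the lowest male library lies above the highest female library, by 1.35-fold for the reductase and by 2.13-fold or more for the oxidases.

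CYP392A16 had 69.1, 70.6, 101 and 85.4 CPM (reads scaled to library size) in female replicates 1 to 4, against 309, 347, 284 and 325 CPM in male replicates 1 to 4. These levels rest on 917 to 1324 reads per female library and 3439 to 7326 per male library. The groups did not overlap, and female replicate 3 was the highest of its sex, 1.46-fold above the lowest. The means were 81.5 ± 14.9 CPM in females and 316 ± 26 CPM in males (SD, n = 4 each). The log2 fold change was -1.96 ± 0.10 (female minus male, SE; 95% interval -2.18 to -1.73; adjusted p = 8.87e-11 by edgeR). A test against a 2-fold difference, in place of no difference, was also passed (adjusted p = 5.23e-08, edgeR glmTreat). Of all tested genes, 27.5% passed that test with the higher level in males.

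CYP392A11 was the steadiest of the oxidases. It had 20.1, 21.9, 21.2 and 23.9 CPM in female replicates 1 to 4, against 112, 111, 109 and 106 CPM in male replicates 1 to 4. The male values spanned a 1.06-fold range and the female values a 1.18-fold range, and the lowest male library was 4.45-fold above the highest female library. The means were 21.8 ± 1.6 CPM in females and 109.7 ± 2.7 CPM in males (SD, n = 4 each). The log2 fold change was -2.34 ± 0.06 (SE; 95% interval -2.46 to -2.21; adjusted p = 1.05e-14 by edgeR), and the test against 2-fold gave an adjusted p of 1.19e-12 by edgeR.

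CYP392E10 was sequenced to a far lower count than the other genes, and its values are the least precise. It had 17, 23, 37 and 20 reads in female replicates 1 to 4, against 96, 127, 106 and 133 reads in male replicates 1 to 4. Scaled, these were 0.964, 1.77, 2.82 and 1.43 CPM in females, against 7.0, 6.01, 8.75 and 8.58 CPM in males. Counting error alone spans 0.562 to 1.54 CPM for female replicate 1 and 1.99 to 3.89 CPM for female replicate 3 (95% exact Poisson intervals). These 2 intervals did not overlap, and the highest female library was 2.93-fold above the lowest. No female interval reached those of the males, the lowest of which began at 5.01 CPM. The means were 1.75 ± 0.79 CPM in females and 7.59 ± 1.31 CPM in males (SD, n = 4 each). The log2 fold change was -2.14 ± 0.24 (SE; 95% interval -2.66 to -1.62; adjusted p = 6.79e-07 by edgeR). Against a 2-fold difference the adjusted p was 8.04e-05 by edgeR.

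The reductase, the electron donor, showed a small difference with little spread. It had 186, 179, 179.9 and 183 CPM in female replicates 1 to 4, against 283, 275, 264 and 249.9 CPM in male replicates 1 to 4. The female libraries lay within a 1.04-fold range, and the groups did not overlap. The means were 182 ± 3 CPM in females and 268 ± 14 CPM in males (SD, n = 4 each). The log2 fold change was -0.56 ± 0.05 (SE; 95% interval -0.67 to -0.45; adjusted p = 5.87e-08 by edgeR), so that the interval of the fold, 1.37 to 1.59, stayed below 2. The reductase did not meet the 2-fold minimum.

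**Figure D2:**
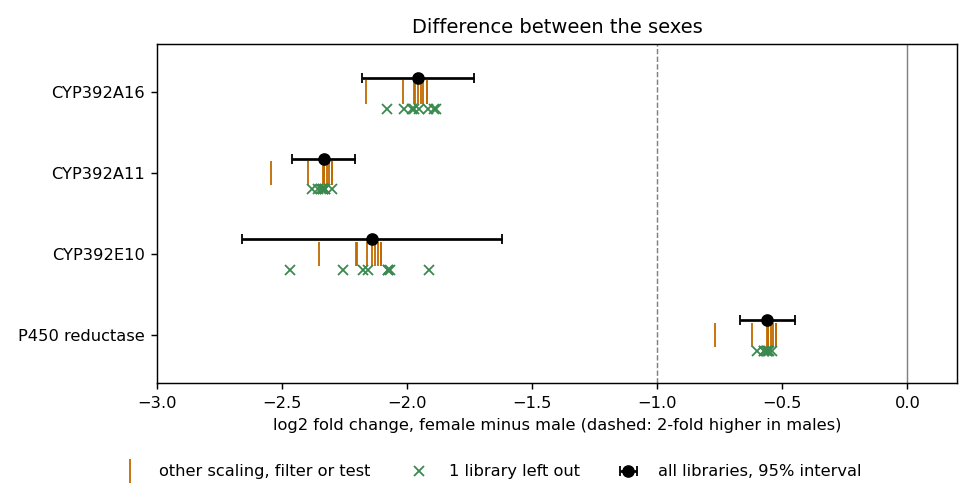
The horizontal axis is the log2 fold change, female minus male, with 1 row per gene. Black points with bars are the estimates from all 8 libraries with 95% intervals, orange ticks the estimates under another scaling, filter or test, and green crosses those with 1 library left out. The oxidases stay to the left of the dashed 2-fold line, and the reductase lies between that line and 0.

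The genes also differed in how much libraries of the same sex varied. The coefficient of variation of the CPM values was 18.3% in females and 8.35% in males for CYP392A16, against 2.96% and 1.47% from counting alone. For CYP392A11 it was 7.20% in females and 2.47% in males, close to the 5.69% and 2.47% from counting alone. For CYP392E10 it was 45.2% in females and 17.3% in males, against 21.2% and 9.39% from counting alone. The reductase had 1.63% in females and 5.39% in males, against 1.97% and 1.58% from counting alone. edgeR's coefficient of biological variation leaves counting error out and is drawn toward the values of genes of like level. It is thus not a gene's own spread alone, and the ranks given here are over tested genes of all levels. The value was 0.106 for CYP392A16, higher than in 78.9% of tested genes. It was 0.184 for CYP392E10, higher than in 96.7% of tested genes. The corresponding values were 0.0505 for CYP392A11 (higher than in 8.60% of tested genes) and 0.0588 for the reductase (higher than in 28.3%). Female replicate 3 was the highest female library for both CYP392A16 and CYP392E10, but the second lowest for CYP392A11 and for the reductase.

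Against all tested genes the oxidases lay in the lower part of the distribution and the reductase near its middle. The median log2 fold change of the tested genes was -0.05 (quartiles -1.36 and 1.11), and the median of the 4 genes was -2.05. A lower log2 fold change, that is a stronger excess in males, was found in 18.3% of tested genes for CYP392A16, 14.9% for CYP392A11 and 16.5% for CYP392E10. For the reductase that share was 39.1%. Differences of a larger size in either direction were found in 32.2%, 25.9% and 29.0% of tested genes for the 3 oxidases in the same order, and in 75.1% for the reductase.

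**Figure D3:**
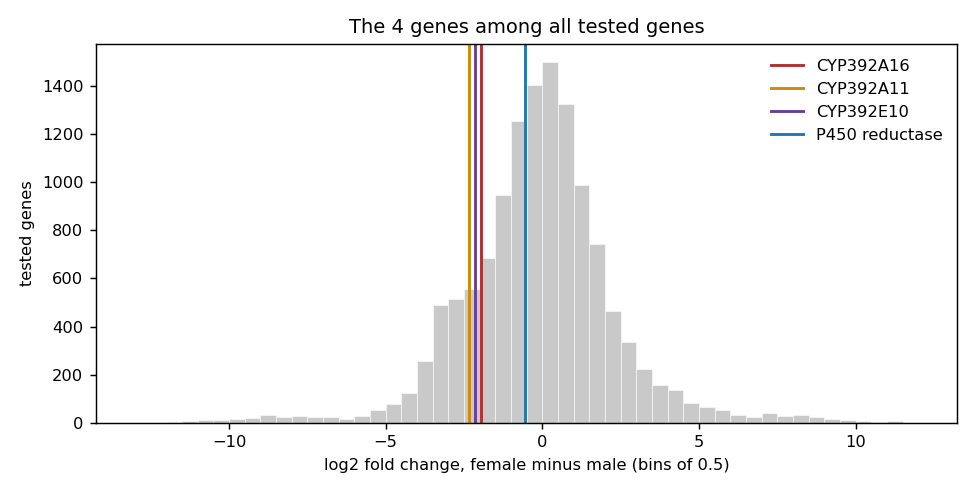
Grey bars count the 12885 tested genes by log2 fold change, female minus male, in bins of 0.5. Coloured lines mark the 4 genes: the oxidases stand at -1.96, -2.34 and -2.14, below the lower quartile of -1.36, and the reductase at -0.56.

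Whether the oxidases differed between the sexes by more than their reductase was tested with the ratio of reads of both genes within a library. Depth and scaling cancel in such a ratio, and gene length cancels when it is compared between the sexes. For the 6 pairs of the 4 genes, exact permutation tests (two-sided) ran over 70 assignments of libraries to sexes, so that p cannot go below 0.0286, with Benjamini-Hochberg adjustment over the 6. Intervals are at the 97.1% level and hold the shifts that the exact test does not place at its smallest p.

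Per 100 reads of the reductase there were 37.3 to 56.1 reads of CYP392A16 in female libraries and 107.5 to 129.9 in male libraries. The log2 ratio differed by -1.41 (female minus male, SE 0.15; interval -1.80 to -0.94; exact p = 0.0286, adjusted p = 0.0429). For CYP392A11 there were 10.8 to 13.1 reads per 100 of the reductase in female libraries and 39.7 to 42.5 in male libraries. That log2 ratio differed by -1.77 (SE 0.06; interval -1.97 to -1.60; exact p = 0.0286, adjusted p = 0.0429). CYP392E10 had 0.520 to 1.57 reads per 100 of the reductase in female libraries and 2.18 to 3.43 in male libraries, a log2 difference of -1.63 (SE 0.36; interval -2.69 to -0.46; exact p = 0.0286, adjusted p = 0.0429). The groups did not overlap for any of the 3 oxidases, and the sex difference of each was larger than that of the reductase by these amounts. The reads of 2 genes of unknown length do not give a ratio of molecules.

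Among the oxidases, CYP392A11 differed more between the sexes than CYP392A16. There were 323 to 476 reads of CYP392A16 per 100 of CYP392A11 in female libraries and 259.9 to 312 in male libraries, a log2 difference of 0.37 (SE 0.14; interval 0.05 to 0.87; exact p = 0.0286, adjusted p = 0.0429). For CYP392A16 against CYP392E10 the log2 difference was 0.22 (SE 0.29; interval -0.70 to 1.11; exact p = 0.486, adjusted p = 0.583). For CYP392A11 against CYP392E10 it was -0.15 (SE 0.34; interval -1.31 to 0.72; exact p = 0.743, adjusted p = 0.743). Both of these intervals are wide and hold differences in either direction. The 4 pairs that passed are at the edge of what 8 libraries allow. Their adjusted p rose to between 0.0571 and 0.0857 when female replicate 3 or any 1 of the 4 male libraries was left out. The adjustment runs over all pairs, so a higher exact p of 1 pair can lift the adjusted p of the others. The rise therefore does not show that each of these pairs weakened. Against the reductase, the log2 difference in these settings was -1.52 to -1.36 for CYP392A16 and -1.79 to -1.76 for CYP392A11. For CYP392E10 it was -1.89 to -1.53. Without female replicate 3 the difference between CYP392A16 and CYP392A11 was 0.25, and without any male library it was 0.32 to 0.41.

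**Figure D4:**
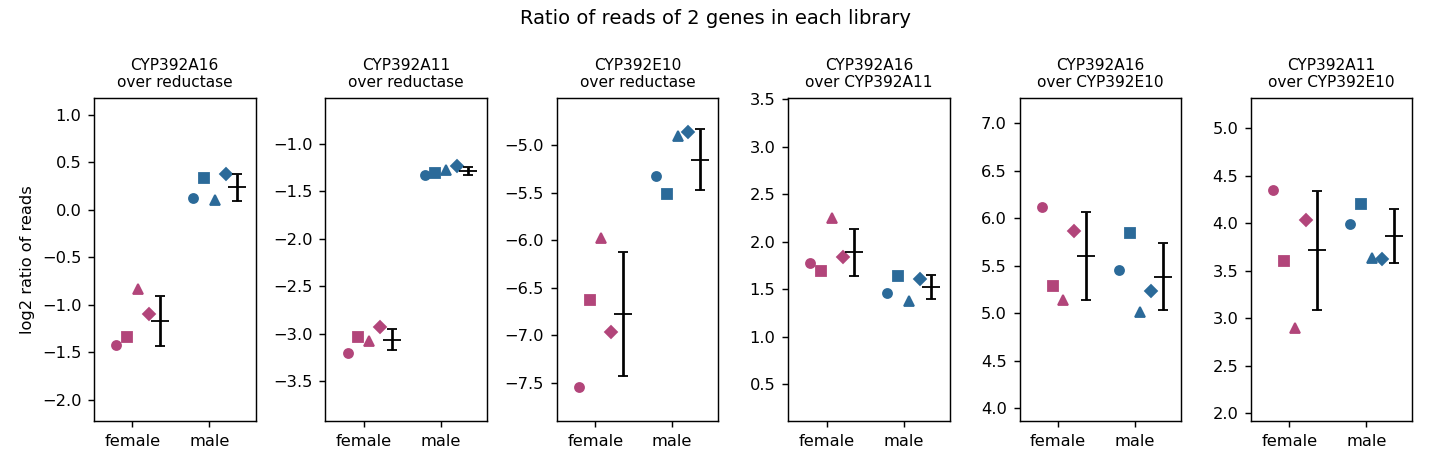
Each panel plots the log2 ratio of the reads of 2 genes in the 4 female libraries (left) and the 4 male libraries (right), with mean and SD in black; all panels span the same log2 range. The ratios of the 3 oxidases to the reductase are lower in every female library than in any male library, and the pairs with CYP392E10 among the oxidases overlap between the sexes.

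The genes whose levels over the 8 libraries were most like those of these 4 were found by the root mean square difference of log2 CPM, a scale not corrected for gene length. The reductase was closest to tetur09g02340, at a distance of 0.0517, which had 181 ± 6 CPM in females and 267 ± 12 CPM in males (SD, n = 4 each). CYP392A11 was closest to tetur01g02110, at 0.0599, with 22.0 ± 1.5 CPM in females and 113 ± 7 CPM in males. A distance of at most 0.25 was found for 61 other genes from the reductase, 40 from CYP392A11, 11 from CYP392A16 and 0 from CYP392E10. The closest gene to CYP392E10 was at 0.29. Counting error alone gave CYP392E10 a coefficient of variation of 21.2% in females, which adds to its distance from any gene. Its count of 0 therefore does not show an unusual pattern over the libraries.

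The gene IDs next to the 4 genes did not share a direction. The 5 IDs before and the 5 after each gene, 40 in all, held 28 tested genes, of which 10 were higher in females (35.7%) and 6 in males (21.4%). Over all tested genes these shares were 26.9% in females and 30.5% in males, and the differences from them were not tested. Beside CYP392A16, 7 IDs were tested, with 3 higher in males and 1 in females. The ID directly before it, singled out after its value was seen, had 0.301 CPM in females and 136 CPM in males, a log2 fold change of -8.72 (adjusted p = 3.21e-08 by edgeR). Beside CYP392A11, 4 IDs were tested, with 2 higher in males and 2 in females. The other 6 had too few reads to be tested. Beside CYP392E10, 8 IDs were tested, 2 were higher in females and their log2 fold changes ran from -0.87 to 1.27. The 9 tested IDs beside the reductase held 5 that were higher in females and 1 that was higher in males. Whether the order of IDs follows the order of genes on a chromosome is not given in the sources used here.

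**Figure D5:**
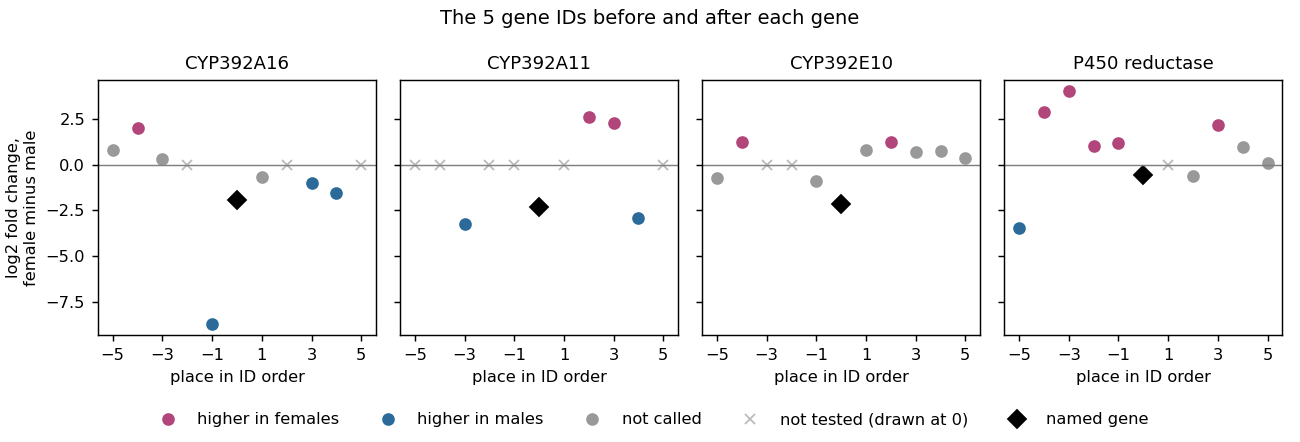
The horizontal axis is the place in the order of IDs before and after each gene (black diamond), and the vertical axis the log2 fold change, female minus male. Pink and blue points are IDs called higher in females and in males, grey points are tested IDs not called, and crosses at 0 are IDs that were not tested. CYP392E10 lies below all of its tested neighbours, whereas each of the other genes has a tested neighbour below it.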

How the data were processed

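The authors deposited a table of raw read counts, with gene IDs in rows and libraries in columns, per the file headers; the whole numbers and unequal totals show that it was not normalized. Libraries were strand-specific and oligo dT selected, per the labels' protocols. The submitters' processing notes name STAR 2.4.1d and HTSeq 0.6.1. Not given in the sources used here are the annotation and build, how strand was set in counting, and the handling of multiply mapping reads, which could be lost or shared between similar P450 genes. Columns were matched to samples by description and samples to sexes by title.

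Counts of all genes were tested with edgeR 4.0.16 in R 4.3.3 (TMM scaling, filterByExpr, sex as the only term), and p-values were adjusted by Benjamini-Hochberg. Genes were called at an adjusted p below 0.05 and at least 2-fold. The step was tested on simulated counts. The standard error is the log2 fold change over the square root of F, and CPM values carry the TMM factors. Ratios of reads had 0.5 added to both counts, and counting intervals are exact Poisson intervals. Alternatives were DESeq2's size factors, upper quartile and total counts; no filter, or 5 CPM in 4 libraries; DESeq2 1.42.0; limma-voom (limma 3.58.1); the replicate number as a block; each library left out; 1 read as pseudocount; and, added after the data were seen, glmTreat against 2-fold.

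The labels call the libraries biological replicates but name no separate cultures, and p-values then cover only the spread between pools, which may be technical. Within a sex, every pair of libraries differed by more than sampling noise. The chi-square per degree of freedom was 3.46 to 9.33 in females and 7.50 to 21.2 in males. Beside the 4 genes, the ID closest in levels to each was sought, and at most 2 such IDs per direction, those at the smallest distance, are named. All 4 lay in the same direction, so those of CYP392A16 and CYP392E10 are not named. The members, lists and tests were chosen with earlier results of these data known. Lists of other P450, electron supply and haem synthesis genes could not be filled, because 0 of the IDs occur in the gene table used here.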

Additional observations from a re-analysis of the deposited data

How the results depend on the processing

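In each of 17 alternatives the 4 genes kept their direction, and the 3 oxidases and no other of the 4 genes were called higher in males. The log2 fold change (female minus male) ranged from -2.17 to -1.89 for CYP392A16, -2.55 to -2.30 for CYP392A11, -2.47 to -1.91 for CYP392E10 and -0.77 to -0.52 for the reductase. The lowest values of CYP392A16, CYP392A11 and the reductase came with upper quartile scaling, which moved the median of all tested genes to -0.27. Another scaling moves all genes nearly alike, so relative to that median the reductase stood at -0.51, as it did with TMM. Its distance from the median changed with the filter, to -0.39 with no filter and -0.60 with 5 CPM in 4 libraries. Over all genes, 2716 to 3886 were called higher in females and 2966 to 4573 in males. With 1 read as pseudocount the ratios of the 6 pairs kept their direction and their side of the threshold. With each library left out in turn, the log2 difference ran from -1.52 to -1.33 for CYP392A16 against the reductase, -1.82 to -1.73 for CYP392A11 and -1.89 to -1.37 for CYP392E10. It ran from 0.25 to 0.43 for CYP392A16 against CYP392A11 and from 0.04 to 0.37 for CYP392A16 against CYP392E10. For CYP392A11 against CYP392E10 it ran from -0.36 to 0.13 and turned positive, at 0.13, without female replicate 3, a pair that passed in no setting. With 3 against 4 libraries there are 35 assignments and the exact p moves in steps of 0.0286. The adjusted p of the other 4 pairs was 0.0429, 0.0571 or 0.0857. A value above 0.0429 can come from a higher exact p of another pair, because the adjustment runs over all 6. Shared replicate numbers showed no pairing: the deviations of female and male libraries with the same number had correlations of -0.0926, 0.0017, 0.0185 and 0.0351, and 1 of 8 samples correlated best with its own number. With the replicate block the log2 fold changes were -1.97 for CYP392A16, -2.34 for CYP392A11, -2.16 for CYP392E10 and -0.56 for the reductase, and 3932 genes were higher in males. CYP392E10 had 17 to 37 reads per female library, where counting error alone gives a coefficient of variation of 21.2%, against 45.2% observed.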
